A study of Homo sapiens with 96 samples.

Results

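Cells build fatty acids through a short chain of enzymes, and the genes of that chain were followed here in a prostate cancer cell line. The set held 10 genes, namely the transcription factor SREBF1, the synthesis enzymes ACLY, ACACA and FASN, the desaturases SCD, FADS1 and FADS2, the elongases ELOVL5 and ELOVL7, and the acyl-CoA ligase ACSL3. Members were taken by gene symbol, with the probe of highest mean for each gene. Of the 10, 9 were measured among the 18571 genes tested, and all 9 passed the filter on dim probes. ACSL3 was not analysed here. SREBF1 gave most of the differences that passed a test. With the 6 arrays that stood apart left out and the array profile accounted for, SREBF1 was 1.73-fold higher under Progesterone (added to the androgen R1881) than under R1881 alone, 1.62-fold higher under Cyproterone acetate and 1.53-fold higher under Apigenin. None of these rises passed with all arrays kept at equal weight, or without the 6 arrays when the array profile was not accounted for. Dropping arrays in turn from the fit without the 6 arrays kept the Progesterone call in 8 of 9 fits. That of Cyproterone acetate held in 3 of 9 and that of Apigenin in 5 of 8. R1881 itself changed none of the 9 genes past the threshold.

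LAPC4 is an established human prostate cancer line that responds to androgens, and the series asks which chemicals act on its androgen receptor. Cells grown in medium with fetal bovine serum were exposed for 6 h, and transcripts were read on 96 Illumina HT-12 v4 arrays. DMSO (0.05%) and the synthetic androgen R1881 (0.33 nM) were represented by 6 arrays per group (numbers 1, 2, 3, 1b, 2b and 3b), while 28 further groups of 3 arrays received R1881 plus 1 chemical, so that every chemical group carries the androgen too. The chemical was given at 20 uM in 18 groups, which were Apigenin, Atrazine, Bicalutamide, BisphenolA, Cyproterone acetate, DDE, Dehydroepiandrosterone, Fenitrothion, Finasteride, Flutamide, Hydroxyflutamide, Iprodione, Linuron, Prochloraz, Procymidone, Spironolactone, Tebuconazole and Vinclozolin. The dose was 10 uM in 5 groups (Progesterone, Mifepristone, Dexamethasone, Triticonazole and Androstenedione) and 0.5 uM in another 5 (Trenbolone, Norethindrone, MethylTestosterone, Testosterone propionate and Dihydrotestosterone). It is 1 line at 1 time point, and the RNA of a whole well does not tell fewer cells that use a gene from less RNA per cell. Values are log2 intensities, on which differences are log2 fold changes.

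Fatty acid synthesis starts in the cytosol, where ACLY splits citrate to acetyl-CoA, ACACA carboxylates it to malonyl-CoA and FASN joins these units into palmitate. SCD then places the first double bond in saturated chains, FADS2 and FADS1 act in turn on polyunsaturated chains, and the ELOVL enzymes lengthen the chains between these steps. SREBF1 encodes SREBP-1, a membrane-bound transcription factor that is cut free when sterols are low and that switches on most genes of this chain, its own included. In prostate cancer cells, androgens are known to raise lipogenic enzymes, in part through this factor.

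Promoter windows of the members were read from RefSeq (GRCh38.p14), 250 bases before each annotated start, and 9 of the 10 genes matched an entry, all but FASN. Shown here are the 3 genes that passed a test against R1881 in the model without the 6 arrays that stood apart and ELOVL5, the gene whose levels ran closest to those of ELOVL7. The windows are chr17:17836987-17837236 for SREBF1, chr11:61817004-61817253 for FADS1, chr5:60844270-60844519 for ELOVL7 and chr6:53348951-53349200 for ELOVL5, all on the minus strand and written 5′ to 3′ towards the start. Capitals mark an E-box (CACGTG) or a CCAAT box in its inverted form (ATTGG).
SREBF1: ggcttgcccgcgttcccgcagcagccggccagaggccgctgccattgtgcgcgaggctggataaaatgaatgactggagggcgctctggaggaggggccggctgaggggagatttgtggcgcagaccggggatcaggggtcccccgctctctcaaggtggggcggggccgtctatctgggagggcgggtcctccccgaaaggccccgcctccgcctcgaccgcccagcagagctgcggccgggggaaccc
FADS1: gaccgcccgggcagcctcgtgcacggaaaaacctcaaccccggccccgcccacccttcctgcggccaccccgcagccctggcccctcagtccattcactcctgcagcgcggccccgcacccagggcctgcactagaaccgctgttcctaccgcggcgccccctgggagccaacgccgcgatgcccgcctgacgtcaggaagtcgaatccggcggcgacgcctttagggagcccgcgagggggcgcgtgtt
ELOVL7: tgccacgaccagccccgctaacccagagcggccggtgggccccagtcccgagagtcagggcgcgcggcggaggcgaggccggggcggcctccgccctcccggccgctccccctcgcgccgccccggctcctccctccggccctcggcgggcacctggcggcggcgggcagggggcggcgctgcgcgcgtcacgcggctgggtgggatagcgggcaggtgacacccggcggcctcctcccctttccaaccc
ELOVL5: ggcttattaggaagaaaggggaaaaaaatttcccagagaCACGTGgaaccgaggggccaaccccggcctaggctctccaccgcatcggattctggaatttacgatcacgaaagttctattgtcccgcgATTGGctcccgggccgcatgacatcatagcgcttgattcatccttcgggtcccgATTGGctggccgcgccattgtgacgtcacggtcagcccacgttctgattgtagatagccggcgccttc
Both strands were searched for 4 motifs that do not overlap one another. The E-box, which SREBP-1 and other factors can bind, was found in ELOVL5 alone among the 9 windows, 211 bases before the start, against 6.49% of 27305 promoters of the same length. The CCAAT box, bound by NF-Y, was found in ELOVL5, ACLY, SCD and ACSL3, against 33% of all promoters. A sterol regulatory element (TCACNCCAC, 0.875% of all promoters) and the androgen receptor half-site AGAACA (12.4%) were in none of the 9. A match describes letters in this window only.

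Arrays differed for reasons that the labels do not give. By their 2000 most variable genes, members left out, they fell into a cluster A of 34 and a cluster B of 62, and 0 of the arrays numbered 2, 11 of those numbered 1 and 23 of those numbered 3 lay in A. Another 6 arrays, all in B, correlated with their cluster at 0.387 to 0.919 against at least 0.949 for the other 90: array 2 of Trenbolone, Spironolactone, Testosterone propionate, MethylTestosterone and Apigenin, and array 3 of Flutamide. The mean of 8 measured luminal markers of 10 listed was 7.23 to 9.87 in these 6, against 9.31 to 10.17 in the rest of B. Luminal genes such as EPCAM (median 11.49) and FOXA1 (12.18) were bright, KLK3 was dim (6.79), and means of the basal, fibroblast, endothelial, leukocyte and adipocyte lists stayed at 7.64 or lower, where the array median is 6.72. A model on all 96 arrays was fitted, and one on 90 arrays with cluster as a term, called the reduced model here. A difference given with no model named is from the reduced model. Calls use limma with Benjamini-Hochberg adjustment over all genes of a comparison at 0.05.

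Members differed between the clusters as well, with no test made of it. In the 90 arrays the mean of ELOVL5 was 9.31 in A and 7.91 in B, that of ELOVL7 was 7.16 and 6.75, and that of FADS2 was 8.70 and 8.31. The order was opposite for SREBF1, at 8.47 in A and 9.11 in B, for FASN, at 11.81 and 12.27, and for ACACA, at 9.62 and 9.92. ACLY (11.11 and 11.13) and SCD (12.54 and 12.58) were nearly level.

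The first comparison asked whether the androgen alone shifts lipogenic transcripts within 6 h. It did not do so past the threshold for any of the 9 genes in either model, where 0.124% of all genes passed with all arrays and 0.985% in the reduced model. SREBF1 spanned 8.44 to 9.24 under DMSO (median 8.95) and 8.35 to 9.17 under R1881 (median 8.86). FASN spanned 11.66 to 12.72 (median 12.29) and 11.79 to 12.96 (median 12.14). SCD spanned 12.34 to 12.66 (median 12.55) and 12.40 to 12.72 (median 12.57). For these 3 genes the groups overlapped almost entirely, and the differences of R1881 minus DMSO were -0.04 (SE 0.13), 0.06 (SE 0.22) and 0.04 (SE 0.11) in the reduced model. At an unadjusted p under 0.05, 0 of 9 passed with all arrays and 1, ELOVL7, in the reduced model, against 1.34% and 5.31% of all genes. The 95% interval for FASN, -0.38 to 0.51 on the log2 scale, bounds what 6 arrays a group could show.

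ELOVL7, an elongase of saturated long chains, came closest to a call. It read 6.65 to 7.004 under DMSO (median 6.75) and 6.66 to 7.51 under R1881 (median 6.88). The 2 highest values of R1881, 7.46 and 7.51, were the 2 arrays of cluster A, where the DMSO mean was 7.002, and in cluster B the means were 6.80 and 6.71. Those 2 arrays, R1881 3 and 3b, may be repeat runs of 1 sample. The difference was 0.22 (SE 0.14, adjusted p = 1) with all arrays and 0.22 (SE 0.06, 95% interval 0.10 to 0.35, adjusted p = 0.0527) in the reduced model. R1881 was higher than the DMSO array of the same number in 5 of 6 pairs, which may include repeat runs. Leaving out 1 array at a time put 3 of 12 reduced fits past the threshold (without R1881 1, R1881 2b or DMSO 2), with adjusted p from 0.00803 to 0.3. This probe is dim, with a mean of 6.90, and its distance from background is not known.

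ELOVL5, which lengthens polyunsaturated chains, showed the same layout at a larger spread. Its values ran from 7.63 to 9.09 under DMSO and from 7.73 to 9.74 under R1881, the A arrays on top in both, and the difference was 0.36 (SE 0.20, adjusted p = 1, reduced model). FADS1, the delta-5 desaturase, was higher under R1881 in 6 of 6 pairs of equal number, by 0.02 to 0.40, yet the difference of 0.14 (SE 0.10, adjusted p = 1, reduced model) did not pass. Numbers 1b to 3b may be repeat runs of 1 to 3, so these 6 pairs may not be independent. FADS2, the delta-6 desaturase, was 0.76 lower under R1881 in cluster A (8.13 against 8.89, 2 arrays each) and 0.02 lower in cluster B. The cluster A arrays of each group were numbers 3 and 3b, which may be repeat runs of 1 sample. ACLY differed by -0.11 (SE 0.20) and ACACA by 0.06 (SE 0.16), with ranges that overlapped. The median change of the 9 genes was 0.06, against -0.00346 over all genes.

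**Figure D1:**
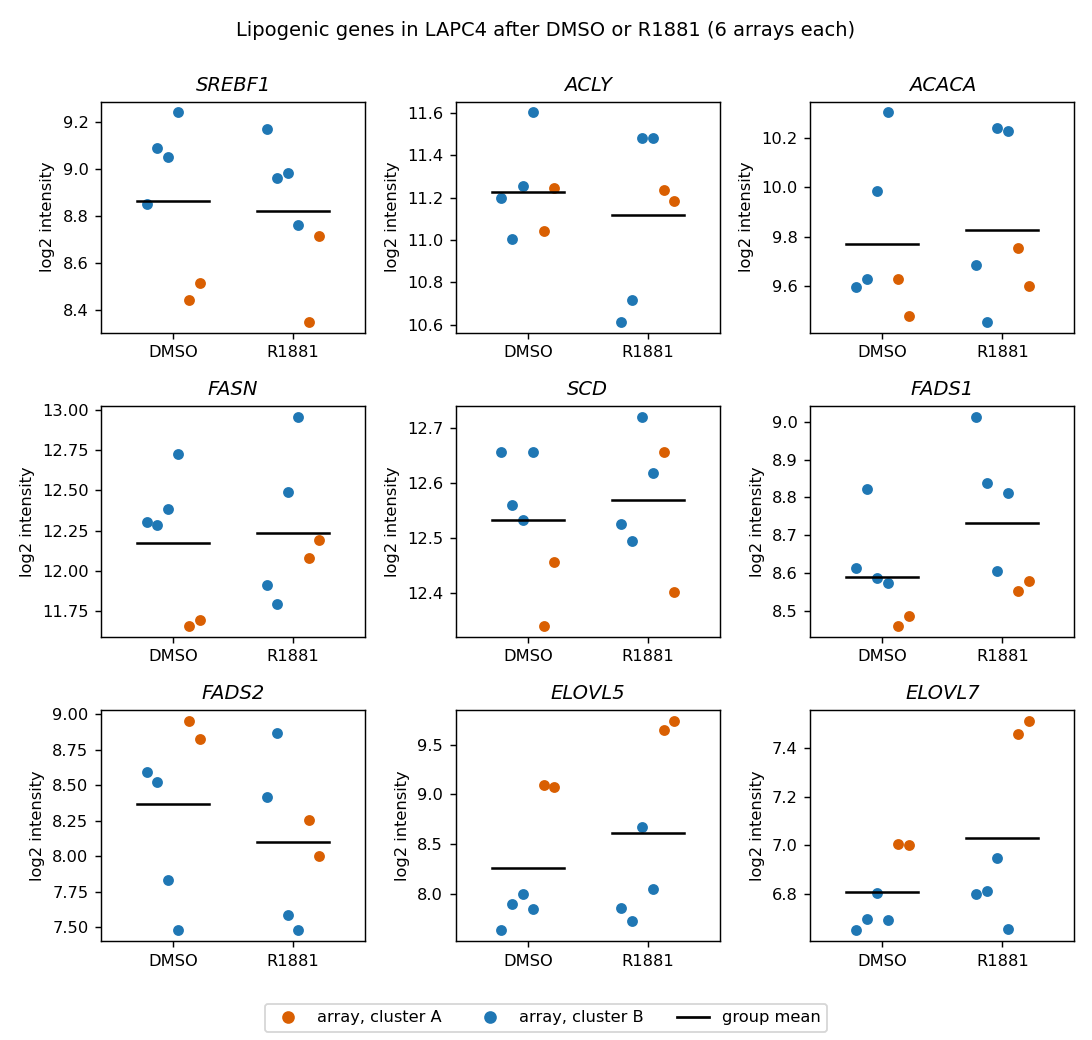
Log2 intensity (vertical axis) of the 9 genes in each of the 6 DMSO and 6 R1881 arrays, with orange points for cluster A, blue points for cluster B and a black bar for the group mean. The cluster A arrays of R1881 stand highest for ELOVL7 (7.46 and 7.51) and ELOVL5, while SREBF1, FASN and SCD overlap between the groups.

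Each chemical was then compared with R1881 alone, which makes 252 combinations of gene and chemical that all share the 6 R1881 arrays. With all arrays 2 combinations passed, SREBF1 under Spironolactone and SCD under Trenbolone, where 17.7% and 10.2% of all genes passed, against 0.116% over the other 26 chemicals. Both include an array that stood apart. In the reduced model 5 passed, and none of them was among the first 2. SREBF1 was higher under Progesterone, Cyproterone acetate and Apigenin, FADS1 was lower under DDE, and ELOVL7 was lower under Apigenin. The share of all genes that passed was 0.409% for Progesterone, 0.135% for Cyproterone acetate, 6.66% for Apigenin, 0.167% for DDE and 0.664% over the other 24 chemicals. At an unadjusted p under 0.05, 11 of the 252 combinations (4.37%) passed with all arrays and 44 (17.5%) in the reduced model, against 4.1% and 5.76% over all genes and the same 28 chemicals. Of those 44, ELOVL7 gave 15, FADS1 gave 10 and each other gene gave 0 to 7. Within a gene they share 1 R1881 mean, so they are not independent.

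**Figure D2:**
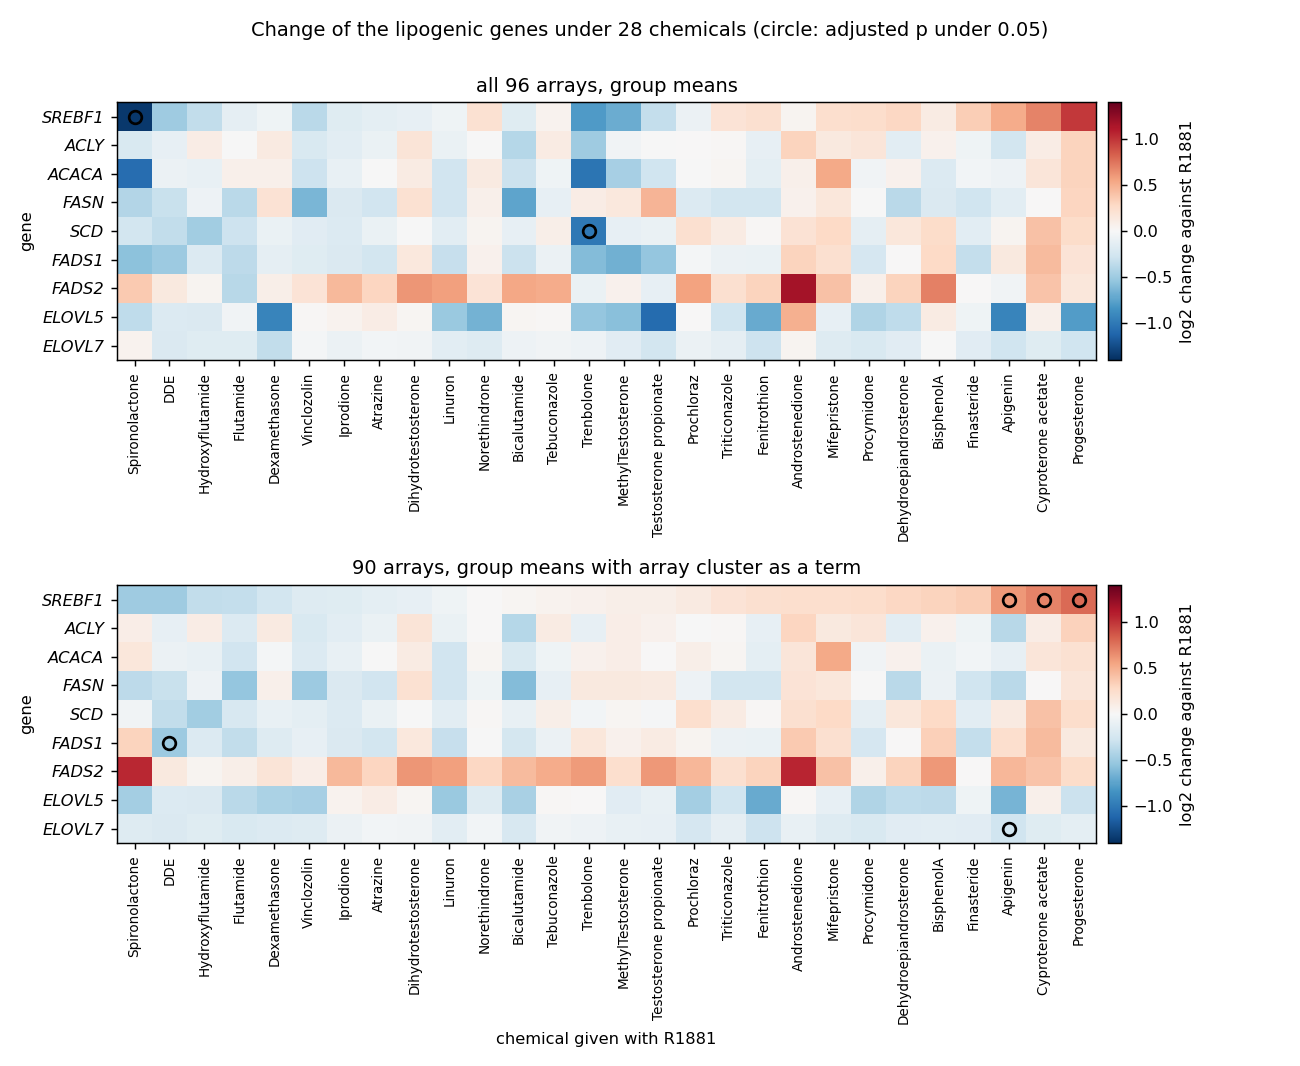
Log2 change against R1881 (colour) of the 9 genes (rows) under 28 chemicals (columns, ordered by the change of SREBF1 in the reduced model), from all 96 arrays above and from the reduced model of 90 arrays below, with circles for adjusted p under 0.05. SREBF1 runs from -0.50 under Spironolactone to 0.79 under Progesterone in the lower panel, FADS2 is on the higher side in all 28 columns and ELOVL7 on the lower side in all 28.

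SREBF1 rose under Progesterone. The 3 arrays, all of cluster B, read 9.87, 9.79 and 9.79, above all 6 arrays of R1881 (8.35 to 9.17) and above its 4 cluster B arrays, whose mean was 8.97. In the reduced model the gain was 0.79 (SE 0.16, 95% interval 0.48 to 1.11, adjusted p = 0.00469), and with all arrays it was 0.99 (SE 0.38, adjusted p = 0.991). The call held in 8 of 9 reduced fits that each left out 1 array. Without Progesterone 3 the change was 0.81 at an adjusted p of 0.0813. The number of all genes that passed was 877 without Progesterone 1, 515 without Progesterone 2 and 6 without Progesterone 3. It was 76 with no further array left out and 44 to 52 without an R1881 array. Progesterone 3 correlated with its cluster at 0.9491, the lowest of the 90 arrays kept. A second probe of SREBF1 gave 0.85, while another, dim one gave 0.07.

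Cyproterone acetate, a steroidal antiandrogen with progestin activity, gave SREBF1 values of 9.86 and 9.83 in its cluster B arrays and 8.88 in its cluster A array. The first 2 lay above every R1881 array, and the last lay above both R1881 arrays of its own cluster, 8.35 and 8.72. SREBF1 rose by 0.70 (SE 0.16, adjusted p = 0.0312) in the reduced model. With all arrays the same 0.70 had an SE of 0.38 and an adjusted p of 1. Only 3 of 9 fits without 1 array kept the call: without array 1 or 2 of Cyproterone acetate the adjusted p was 0.42 and 0.355, and without R1881 array 2, 3, 1b or 2b it was 0.0636, 0.0804, 0.062 and 0.111. The second probe gave 0.75 and the dim probe -0.09.

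Apigenin, a plant flavone, gave 9.49 (cluster B), 9.36 (the array that stood apart) and 9.18 (cluster A), above the highest R1881 array, 9.17, in each case. In the reduced model, with 2 arrays left, SREBF1 rose by 0.61 (SE 0.18, adjusted p = 0.0248), and with all arrays it was at 0.52 (SE 0.38, adjusted p = 0.838). The second probe gave 0.91 and the dim probe -0.09. The call held in 5 of 8 fits without 1 array, with an adjusted p of 0.077 without Apigenin 1, 0.436 without Apigenin 3 and 0.056 without R1881 2b.

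In the reduced model SREBF1 was lowest under Spironolactone and DDE, while with all arrays the means of Trenbolone (8.03) and MethylTestosterone (8.13), each with an array that stood apart, were also below that of DDE (8.33). The Spironolactone arrays read 7.92, 6.57 and 7.92, and the lowest value is the array that stood apart, in which ACACA (6.70), FADS1 (6.63) and ELOVL5 (6.60) were also at the dim end. With all arrays SREBF1 fell by 1.35 (SE 0.38, adjusted p = 0.00735). Without that array the change was -0.90 (adjusted p = 0.469) with no cluster term, and -0.50 (SE 0.18, adjusted p = 0.0846) in the reduced model. The other 2 arrays both lay in cluster A, where they were 0.61 below the R1881 mean of 8.53. The second probe gave -0.06 in the reduced model, unlike the probe used. Under DDE, a metabolite of the insecticide DDT, SREBF1 read 8.53, 8.72 and 7.74, with a difference of -0.50 (SE 0.16, adjusted p = 0.551).

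**Figure D3:**
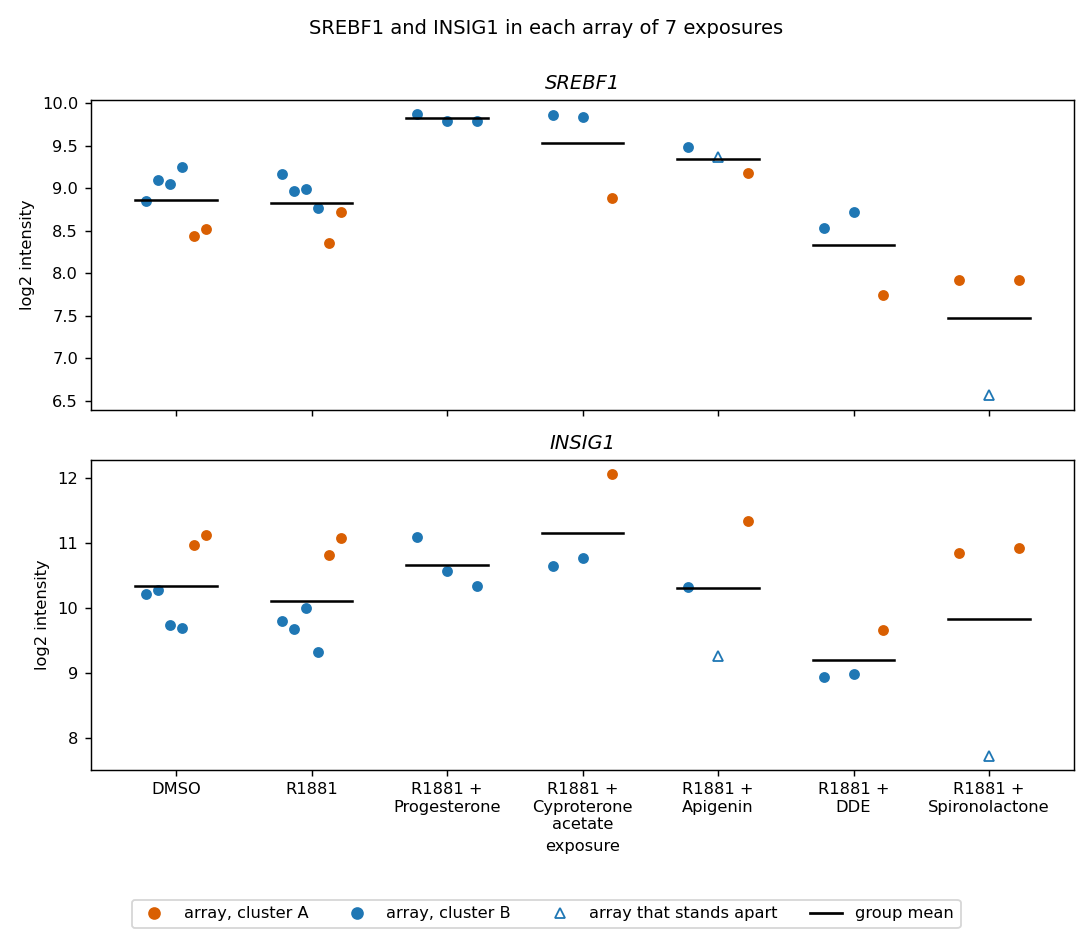
Log2 intensity of SREBF1 (upper panel) and of INSIG1, which encodes the protein that holds SREBP in the membrane (lower panel), in each array of 7 exposures, with cluster A in orange, cluster B in blue, open triangles for arrays that stood apart and black bars for group means. The Progesterone arrays of SREBF1 sit at 9.79 to 9.87, above all R1881 arrays, and the DDE arrays of INSIG1 (8.94, 8.99 and 9.66) lie below the R1881 arrays of their clusters.

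The synthesis enzymes gave no call in the reduced model. FASN was lowest under Bicalutamide, a nonsteroidal antiandrogen, at 11.46, 11.46 and 11.58, below every R1881 array (11.79 to 12.96). Its difference was -0.61 (SE 0.27, adjusted p = 0.931) in the reduced model and -0.74 (SE 0.31, adjusted p = 1) with all arrays. Vinclozolin, a fungicide with antiandrogenic metabolites, gave 11.37, 11.90 and 11.52 and a difference of -0.51 (SE 0.27, adjusted p = 1), and Flutamide gave -0.54 (SE 0.31, adjusted p = 1). FASN was below R1881 under 19 of the 28 chemicals and highest under Dihydrotestosterone, at 0.22. With arrays weighted by their residual spread instead of left out, and no cluster term, FASN passed under Bicalutamide (-0.75, adjusted p = 0.0277), Vinclozolin (-0.79, adjusted p = 0.0166) and Spironolactone (-0.64, adjusted p = 0.0164). Vinclozolin and Bicalutamide had 2 of 3 arrays in cluster A, where FASN is lower, and R1881 had 2 of 6.

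ACLY ranged from -0.40 under Bicalutamide to 0.32 under Progesterone in the reduced model, and was lowest under Trenbolone, at -0.50, with all arrays. Bicalutamide array 2 read 10.29, beside 10.82 and 11.06, and Progesterone array 3 read 12.08, beside 11.02 and 11.21. For ACLY 0 of 28 chemicals reached an unadjusted p under 0.05 in either model. Its second probe gave -0.08 under Bicalutamide. ACACA was highest under Mifepristone, the progesterone receptor antagonist, at 9.86, 10.16 and 11.04, where the last value exceeds every R1881 array. That difference was 0.53 (SE 0.19, adjusted p = 0.362), and a second probe gave 0.39. The low ACACA means with all arrays, -1.07 under Spironolactone (adjusted p = 0.0578) and -1.02 under Trenbolone (adjusted p = 0.0905), came with single arrays at 6.70 and 6.74. Without them the reduced model gave 0.16 and 0.06.

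Among the desaturases, FADS1 fell under DDE. Its arrays read 8.05, 8.46 and 8.17, all below the lowest R1881 array, 8.55. The change was -0.51 (SE 0.12, 95% interval -0.74 to -0.27, adjusted p = 0.0353) in the reduced model and -0.51 (SE 0.34, adjusted p = 1) with all arrays. It was present within both clusters, at -0.39 in A (1 against 2 arrays) and -0.56 in B (2 against 4). The call held in 3 of 9 fits that left out 1 array. Without DDE 1 the change was -0.39 at an adjusted p of 1, without DDE 3 the adjusted p was 0.146, and without R1881 array 1, 1b, 2b or 3b it was 0.131, 0.0649, 0.0638 and 0.0543. FADS1 was highest under Cyproterone acetate, at 9.40, 9.05 and 9.06, all above the R1881 maximum of 9.01, with a difference of 0.44 (SE 0.12, adjusted p = 0.173).

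SCD, the delta-9 desaturase, had its highest mean under Cyproterone acetate and a low one under DDE, without passing. Under Cyproterone acetate it read 13.05, 13.02 and 12.87, above all R1881 arrays (12.40 to 12.72), with a difference of 0.41 (SE 0.13, adjusted p = 0.539). Under DDE it read 12.14, 12.27 and 12.25, below all of them, with a difference of -0.35 (SE 0.13, adjusted p = 1). Hydroxyflutamide gave the lowest reduced value, -0.49 (SE 0.13, adjusted p = 0.118), with array 1 at 11.32 and the other 2 at 12.58 and 12.34. The call of SCD under Trenbolone with all arrays, -1.005 (SE 0.24, adjusted p = 0.0103), rested on array 2 at 9.64, beside 12.36 and 12.69. Without it the change was -0.04 (adjusted p = 1).

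FADS2 was higher than R1881 alone under all 28 chemicals in the reduced model, from 0.01 under Finasteride to 1.07 under Androstenedione, and under 24 with all arrays. These 28 differences share 1 set of R1881 arrays, and R1881 had the lowest adjusted level of the 30 groups while DMSO had rank 12 from the lowest, so the 28 signs are not independent. Androstenedione, a precursor of testosterone, read 9.48, 8.98 and 9.34, above every R1881 array (7.48 to 8.87). Its difference was 1.07 (SE 0.34, adjusted p = 0.999). Spironolactone gave 9.20 and 9.50 in its 2 cluster A arrays, with a difference of 1.05 (SE 0.40, adjusted p = 0.0952). Its array that stood apart read 6.72, below every R1881 array. With that array the mean of Spironolactone was 8.47, against 8.10 for R1881. With array weights and no cluster term both chemicals passed, Androstenedione at 1.37 (adjusted p = 0.0108) and Spironolactone at 1.32 (adjusted p = 3.42e-05). FADS2 was higher in cluster A (mean 8.70) than in cluster B (8.31). Cluster A held arrays 1 and 3 of both chemicals, and of R1881 only arrays 3 and 3b.

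ELOVL7 was the mirror case, below R1881 under all 28 chemicals in the reduced model (-0.29 under Fenitrothion to -0.03 under Atrazine) and under 26 with all arrays. R1881 alone had the highest adjusted level of the 30 groups and DMSO ranked 4 from the lowest. Of the 28, 15 had an unadjusted p under 0.05 in the reduced model, against 0 with all arrays, where 5.76% and 4.1% of all combinations of gene and chemical did, and 1 passed the adjusted threshold. Under Apigenin, where it passed, ELOVL7 read 6.62, 6.60 and 7.04, and the cluster A array among them lay below both R1881 arrays of that cluster, 7.46 and 7.51. The change was -0.28 (SE 0.09, adjusted p = 0.036) in the reduced model and -0.28 (SE 0.17, adjusted p = 0.718) with all arrays, and 3 of 8 reduced fits without 1 array kept it. The adjusted p was 0.271 without Apigenin 1, 0.263 without Apigenin 3, and 0.0636, 0.0893 and 0.105 without R1881 array 2, 3 or 3b. ELOVL5 under Apigenin differed by -0.65 (SE 0.29, adjusted p = 0.213), and its lowest value was -0.70 (SE 0.25, adjusted p = 0.455) under Fenitrothion.

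**Figure D4:**
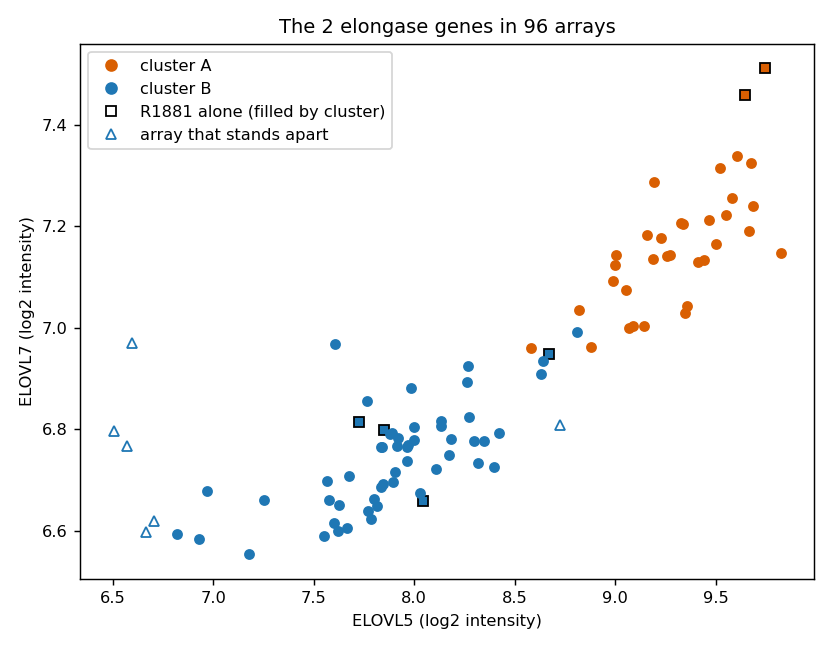
Log2 intensity of ELOVL5 (horizontal axis) and ELOVL7 (vertical axis) in 96 arrays, with cluster A in orange, cluster B in blue, squares for R1881 alone and open triangles for the 6 arrays that stood apart. Cluster A lies to the upper right, and its R1881 arrays hold the highest ELOVL7 values, 7.46 and 7.51.

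Related chemicals at equal dose were also set against each other, in 12 pairs and 108 combinations. SREBF1 in Spironolactone minus Cyproterone acetate, both steroids with antiandrogenic activity, was the 1 combination that passed in each model, where 11.7% (all arrays) and 5.29% (reduced) of all genes passed in that pair and 0.0617% and 0.0773% over the other 11. The difference was -2.05 (SE 0.44, 95% interval -2.93 to -1.18, adjusted p = 0.00184) with all arrays and -1.20 (SE 0.21, interval -1.61 to -0.79, adjusted p = 3.07e-05) in the reduced model. All 5 reduced fits without 1 array kept the call. With all other arrays kept and no cluster term, leaving out Spironolactone 2 gave -1.60 at an adjusted p of 0.131. Without all 6 arrays that stood apart and no cluster term, the same -1.60 had an adjusted p of 0.00309. Within cluster A the 2 Spironolactone arrays read 7.92 each and the Cyproterone acetate array 8.88. SCD in the same pair differed by -0.46 (SE 0.17, adjusted p = 0.118). It passed in neither model. With no cluster term SCD passed there with cyclic loess (-0.46, adjusted p = 0.0252) and with array weights (-0.52, adjusted p = 0.000585). It also passed when Trenbolone 2 alone was left out (-0.67, adjusted p = 0.00335).

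Mifepristone and Progesterone, a progesterone receptor antagonist and agonist, differed in SREBF1 by -0.55 (interval -0.92 to -0.19, adjusted p = 0.263) and in SCD by 0.03 (interval -0.27 to 0.34) in the reduced model. For FASN, Flutamide minus Bicalutamide was 0.07 (interval -0.63 to 0.77), and Hydroxyflutamide minus Bicalutamide was 0.54 (interval -0.09 to 1.17, adjusted p = 1). Flutamide and its hydroxylated metabolite differed in SREBF1 by 0.01 (interval -0.39 to 0.42). The dicarboximide fungicides Vinclozolin and Iprodione differed in SREBF1 by -0.003 (interval -0.37 to 0.36), while Vinclozolin minus Procymidone was -0.43 (interval -0.79 to -0.06, adjusted p = 1). None of these differences passed in either model. With array weights and no cluster term, SREBF1 in Vinclozolin minus Procymidone passed (-0.90, adjusted p = 0.0349).

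The members' levels over the 30 exposures were compared after the cluster term was taken out and the 6 arrays were dropped. These correlations are descriptions over 30 groups that share their normalization and cluster term. ACLY and FASN, which work in sequence, had a Pearson r of 0.80 (Spearman 0.78), and ACACA and FASN 0.65 (0.69). ACLY and FASN also varied together between arrays of 1 exposure. In cluster B of R1881, arrays 1 and 1b read 10.61 and 10.72 for ACLY and 11.91 and 11.79 for FASN. Arrays 2 and 2b read 11.48 and 11.48 for ACLY and 12.49 and 12.96 for FASN. Whether the correlations over groups follow the exposures was not tested. SCD and FADS1 had 0.78 (0.81), SREBF1 and SCD 0.75 (0.72), and SREBF1 and FADS1 0.50 (0.48). SREBF1 with FASN had 0.28 (0.26) and with ACLY 0.15 (0.19). The elongases ELOVL5 and ELOVL7 had 0.79 (0.74) with each other and between -0.12 and -0.02 with SREBF1. ACACA had 0.64 (0.67) with FADS1 and 0.61 (0.62) with SCD, close to its value with FASN.

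**Figure D5:**
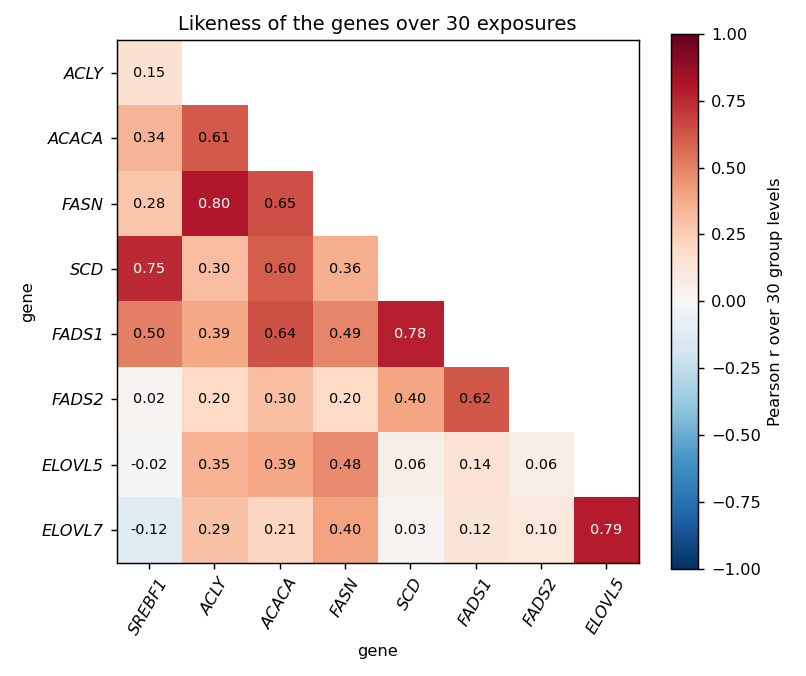
Pearson correlation (colour and printed value) between each pair of the 9 genes over 30 group levels, after the cluster term. The highest values are those of ACLY with FASN (0.80), ELOVL5 with ELOVL7 (0.79), SCD with FADS1 (0.78) and SREBF1 with SCD (0.75).

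Other lipogenic genes were read from a list of 40, of which 37 were measured. Between R1881 and DMSO 1 of them passed, in the reduced model: ELOVL2, another elongase of polyunsaturated chains, was 0.39 higher (SE 0.10, adjusted p = 0.0244, and 1 with all arrays). Its values were 6.95 to 7.41 under R1881 and 6.60 to 6.97 under DMSO, and 1 R1881 array overlapped with DMSO. These values are dim, where the array median is 6.72, and their distance from background is not known. ELOVL2 was not followed in the reduced fits that left out 1 array. In that comparison 0.985% of all genes passed in the reduced model. Against R1881, 6 of 1036 combinations (0.579%) passed with all arrays, and in the reduced model 6 passed as higher and 2 as lower (0.772%). These shares lie below those of all genes under the 28 chemicals, 1.1% and 0.832%.

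INSIG1, a known target of SREBP and the anchor that retains it, made up 5 of these 8. It rose under Progesterone (0.91, SE 0.22, adjusted p = 0.0327) and Cyproterone acetate (1.04, SE 0.21, adjusted p = 0.00852), where SREBF1 rose too, and fell under DDE (-0.92, SE 0.21, adjusted p = 0.0378), where FADS1 fell. In cluster B, INSIG1 read 11.09, 10.57 and 10.34 under Progesterone, 10.65 and 10.76 under Cyproterone acetate, and 8.94 and 8.99 under DDE, against 9.32 to 10.004 under R1881. In cluster A it read 12.06 under Cyproterone acetate and 9.66 under DDE, against 10.81 and 11.09 under R1881. None of the 5 passed with all arrays, where the SE was 0.58 and adjusted p was 1. INSIG1 also rose under Androstenedione (1.09, adjusted p = 0.00944) and BisphenolA (0.95, adjusted p = 0.0109). Under Apigenin, where SREBF1 also rose, INSIG1 was at 0.53 (adjusted p = 0.243) and did not pass. Androstenedione and BisphenolA had no member past the threshold and are named after their values were seen. INSIG1, like ELOVL2, was not followed in the reduced fits that left out 1 array.

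Under Apigenin GPAM, which starts triglyceride assembly, fell by 0.59 (SE 0.18, adjusted p = 0.0266) in the reduced model, and was at -0.75 (adjusted p = 0.535) with all arrays. In the reduced model 1 of the 37 genes and 6.66% of all genes passed under Apigenin. Under Spironolactone ACSS2, which makes acetyl-CoA from acetate, rose by 0.998 (SE 0.28, adjusted p = 0.0114) in the reduced model, where 2 of the 37 genes (5.41%) and 8.74% of all genes passed, and was at 0.09 (adjusted p = 0.948) with all arrays. The other was MLXIPL, the factor ChREBP, which lies past the limit of 6 named genes and was named after its values were seen. With all arrays 5 others of the 37 (13.5%) passed under Spironolactone, against 17.7% of all genes, with THRSP, ACSL6 and FADS3 higher and OXSM and HACD2 lower. In the reduced model THRSP was at -0.003, ACSL6 at -0.06 and FADS3 at -0.02, and OXSM (-0.29, adjusted p = 0.0734) and HACD2 (-0.63, adjusted p = 0.483) did not pass. PNPLA3 passed under Trenbolone with all arrays (0.30, adjusted p = 0.0145) and not in the reduced model (0.10, adjusted p = 1). It was 1 of the 37 genes, where 10.2% of all genes passed under Trenbolone with all arrays. GPAM, ACSS2 and MLXIPL were not followed in the reduced fits that left out 1 array.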

How the data were processed

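Transcripts of LAPC4 cells were read on 96 arrays in 30 groups, taken from the sample labels. The deposited values are log2 intensities, as judged from their range of 6.3157 to 14.152. Per the design text of the series, the authors used iScan 3.3.28 for the scan, with Partek Genomics Suite and GenomeStudio for the analysis. The submitters' processing notes also name limma. Array medians lay between 6.7211 and 6.7212, as after quantile normalization, so values were used as deposited. How background was corrected is not stated in these sources.

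Of 48107 probes, 30113 have 1 gene symbol in the platform annotation, 8 have several and the others are unnamed here. A probe was kept if 3 or more arrays had it above their 50th percentile (43820 were), and each gene took its kept probe of highest mean, which gave 18571 genes. There were 191 missing values, left out array by array. Group means were fitted with limma 3.58.1 (lmFit, contrasts.fit, eBayes; R 4.3.3, with the data.table package, version 1.17.8), with Benjamini-Hochberg adjustment within a comparison and a threshold of 0.05. The reduced model dropped 6 arrays and added array cluster (k-means, 2 clusters) as a term. The code was tested on simulated data.

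Members, lists, clusters and the reduced model were chosen with earlier results of these data known. Named genes were all members, genes of the lipogenic list that passed between R1881 and DMSO or under a chemical where a member passed (at most 6 per comparison), and the markers. Same-numbered DMSO and R1881 arrays deviated together (correlations of 0.442 to 0.891, 6 of 6 above 0.1), so the numbers pair these 2 groups. For the chemicals 57 of 84 such correlations were above 0.1. Control arrays of the same group and number correlated at 0.9705 to 0.9977, against 0.9073 to 0.9825 for other numbers, so repeat runs cannot be told from separate samples by these values, and all 12 were used as samples. The reduced model was not refitted with same-numbered controls averaged. The design text gives 3 experiments on separate days but ties no array to a day, so p-values measure the spread between these arrays, which may be partly due to the assay. The number of arrays limits the precision of each mean. Alternatives covered probe filters and summaries, normalization, the samples in the fit, array weights, the replicate block, the controls used and leaving out each array.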

Additional observations from a re-analysis of the deposited data

How the results depend on the processing

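Between R1881 and DMSO 0 of 9 genes passed under every setting of the counts, including the 12 fits on the other arrays that left out 1, while ELOVL7 passed in 3 of 12 reduced fits without 1 array. The count of 2 over the 28 chemicals became 0 with cyclic loess, with only the groups compared in the fit, and without the 6 arrays that stood apart and no cluster term. It became 1 with same-numbered controls averaged, with controls 1 to 3 only and with controls 1b to 3b only. It became 4 with a cluster term on all arrays, 5 in the reduced model, 5 in the reduced model with replicate block and 11 with array weights. Fits without 1 array gave 2 to 6, with 6 without Trenbolone 3 and 4 without Spironolactone 3. The count of 1 over the pairs became 0 with only the groups compared, 2 with cyclic loess, 2 with a cluster term on all arrays and 7 with array weights. Fits without 1 array gave 1 to 4, and 4 came without Trenbolone 2, 3 without Spironolactone 1, Spironolactone 3 or Testosterone propionate 2, and 2 without Trenbolone 1, Trenbolone 3 or MethylTestosterone 2. The cause was not tested. The cluster term on all arrays, the fit without 6 arrays and no cluster term, the reduced fits without 1 array and the reduced fit with replicate block were added after seeing the data.

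With replicate number as a block (replicate block) on all arrays the counts were 0, 2 and 1, and no call changed. In the reduced model the block left 0, 5 and 1, the same calls, with adjusted p of 0.0049 for SREBF1 under Progesterone, 0.011 under Cyproterone acetate and 0.0181 under Apigenin, 0.00963 for FADS1 under DDE, 0.0421 for ELOVL7 under Apigenin and 2.04e-05 for the pair, while ELOVL7 under R1881 stayed at 0.0549. On all arrays with the block SREBF1 under Spironolactone had an adjusted p of 0.00713, SCD under Trenbolone 0.00789 and the Spironolactone and Cyproterone acetate pair 0.00179. SREBF1 under Progesterone passed in the reduced model, with or without the block, and with array weights (0.95, adjusted p = 0.0138). The fit with array weights had no cluster term. All Progesterone arrays lay in cluster B, where the mean of SREBF1 was 9.11, against 8.47 in cluster A. The adjusted p of SREBF1 under Progesterone was 0.00499 to 0.0813 in the reduced fits without 1 array and 0.114 to 1 under the other settings tried. Small changes of R1881 minus DMSO that passed nowhere turned sign. SREBF1 was 0.0535 with controls 1 to 3 only and -0.126 to 0.0539 without 1 array. ACACA was -0.0429 with controls 1b to 3b only and -0.0263 to 0.162 without 1 array. FASN was -0.0811 to 0.174 without 1 array. SCD was -0.0526 with controls 1b to 3b only and -0.00258 to 0.0700 without 1 array. Dim probes, ELOVL7 above all, limit what can be read, since their signal over background is not known.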
